A study of Mus musculus with 6 samples.

Results

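The genes described here are 47 regulators of the cell cycle and of DNA replication in the mouse uterus, out of 23420 genes in the deposited table. They were chosen by name and function, as regulators of G1, origin licensing, nucleotide supply and mitosis. Earlier results of these data were known when they were chosen, so the list is not independent of the data. All 47 were found by their symbol. Uterine RNA was sequenced from 8 week old C57BL/6J females at pseudopregnancy day (PPD) 4.5, after mating with vasectomized males, as 3 pools of 2 mice for each genotype. Both genotypes carried floxed Foxo1 alleles on both chromosomes. The Foxo1f/f group had no Cre, and the Foxo1d/d group (PgrCre/+ Foxo1f/f) also carried Cre recombinase at the Pgr locus. The column headed WT is the Foxo1f/f group and not a wild type. Cre is driven from Pgr, and the paper describes it as acting in every compartment of the uterus, in the pituitary and in granulosa cells of the ovary. The paper's immunostaining of pregnant uteri found FOXO1 lost from epithelium and stroma in Foxo1d/d, while blood vessels kept it. That staining was not of the RNA pools used here. The controls lacked Cre, so effects of Cre itself and of the deletion cannot be told apart.

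A dividing cell passes through G1, S, G2 and mitosis under cyclin-dependent kinases (CDKs), which are switched on by cyclins and held back by inhibitors. Phosphorylation of RB proteins by G1 cyclins and CDKs releases E2F factors, which drive genes for licensing, nucleotide supply and replication, and a later wave of genes serves mitosis. In the mouse uterus, estrogen drives division of the luminal epithelium early in pregnancy, progesterone stops it before implantation, and the stroma then starts to divide.

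The table gives the authors' mean raw count of each gene in each genotype, and values of single libraries were not analysed here, so no test, SD or p-value is given for any gene. A library held a mean of 26125014 gene counts in Foxo1f/f, against 27257963 in Foxo1d/d. Ratios are log2 values of Foxo1d/d relative to Foxo1f/f, after adding 1 to both mean counts and dividing by the total of the genotype. The 95% counting bounds or intervals are Wilson intervals from the counts summed over 3 libraries. They cover counting error only, and nothing here gives the spread between pools. Foxo1, which checks the labels, averaged 3941 counts in Foxo1f/f against 1456 in Foxo1d/d, at a log2 ratio of -1.50 (95% counting bounds -1.55 to -1.45). The deletion removes the second coding exon. How much of the remaining Foxo1 count comes from the other exons or from cells that kept FOXO1 was not tested.

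Most of the 47 genes had somewhat higher counts in Foxo1d/d, and the differences were mostly small. The log2 ratio was above 0 for 44 of 47 members, beside 55.1% of the 15696 genes that averaged 10 or more counts over the genotypes, a level all 47 members passed. Their median log2 ratio was 0.25, beside 0.02 for all those genes. Over 1.5-fold higher were 2 members, Ccne1 and Cdc6, beside 5.43% of all genes, a share that 2 of 47 does not exceed. That share depends on the minimum count. It was 8.11% with no minimum and 3.81% with a minimum average of 50 counts, which 2 of 47 slightly exceeds. No member was over 1.5-fold lower, beside 3.51% of all genes. At a smaller threshold, a log2 ratio of 0.32, 17 members were higher, beside 12.5% of all genes, and 1, Cdk6, was lower, beside 9.00%. With ratios centred on the median gene or scaled by the upper quartile instead of the total, 15 members were above 0.32 under each, beside 11.3% and 11.5% of all genes. The counting interval lay above 0 for 41 members, beside 36.7% of all genes, and below 0 for 1, beside 27.3%. Under each of those scalings it lay above 0 for 38, beside 32.1% and 32.8% of all genes, and below 0 for 3, beside 31.6% and 30.9%. Whether an interval leaves out 0 also depends on the count of the gene. The lowest average of a member in either genotype was 88.7 counts, while the comparison set starts at an average of 10. These interval shares are thus not matched for count. The ratio itself was above 0 for 44 members under each, beside 50.7% of all genes with the upper quartile, while centring itself sets that share. The members lay mainly in the range of modest ratios, as the plot of their ratios by role shows. Together they took 0.187% of the gene counts of Foxo1f/f and 0.221% of those of Foxo1d/d. In RNA from whole tissue, more cells of a type and more RNA per cell cannot be told apart.

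**Figure D1:**
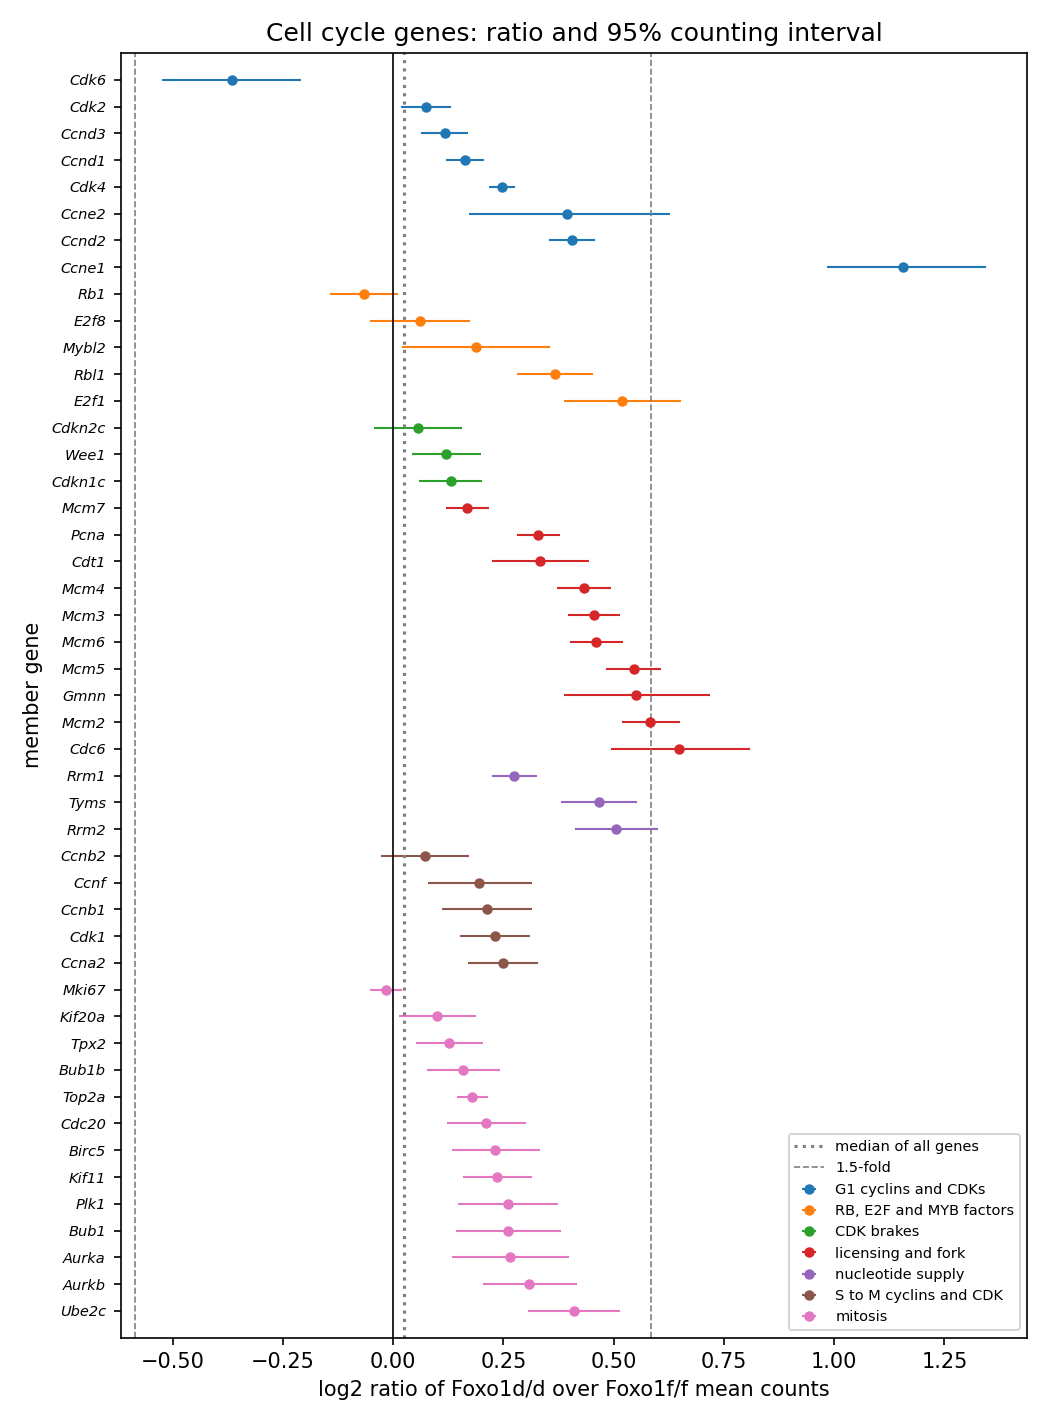
Log2 ratio between genotypes, Foxo1d/d relative to Foxo1f/f, for the 47 members by role, with bars for 95% counting intervals, a dotted line at the median of all genes (0.02) and dashed lines at 1.5-fold. Of the 10 licensing and fork genes, 9 lie to the right of the members' median of 0.25, up to 0.65 for Cdc6, while Mcm7 lies to its left at 0.17, and Ccne1 stands at 1.16.

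Promoter sequences of 35 members were matched by symbol in RefSeq GRCm38.p6. Those of Kif20a, Mcm4, Ccnd2, Ccnd1, Ccne2, Cdkn1c, Gmnn, Wee1, Tpx2, Ccna2, Rb1 and Aurkb were not matched. Bases before the start are printed for Ccne1, the member with the highest ratio, for Mcm6, which held the most E2F-like letters among those printed, and for the mitosis genes with the highest and lowest ratio (Ube2c and Mki67). They were picked after their values were seen. Of the 250 bases before the start in the promoter table, only those upstream of every annotated start of the gene in RefSeq and GENCODE are printed. The Cdc6 window lies inside the annotated gene and is not printed. Capitals mark CCAAT, the CHR letters TTTGAA or TTCGAA, and the E2F-like letters TTGGCGC or TTCCCGC or TTCGCGC or TTGCCGC, on either strand. The Ccne1 window is chr7:38107535-38107740 on the minus strand. Mcm6 is at chr1:128359706-128359955 on the minus strand. For Ube2c it is chr2:164769679-164769897 on the plus strand, and for Mki67 it is chr7:135716451-135716629 on the minus strand.
Ccne1: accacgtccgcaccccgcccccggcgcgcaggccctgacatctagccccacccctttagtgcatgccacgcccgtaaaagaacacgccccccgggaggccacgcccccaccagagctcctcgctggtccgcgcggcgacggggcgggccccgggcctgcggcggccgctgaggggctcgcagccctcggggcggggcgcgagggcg
Mcm6: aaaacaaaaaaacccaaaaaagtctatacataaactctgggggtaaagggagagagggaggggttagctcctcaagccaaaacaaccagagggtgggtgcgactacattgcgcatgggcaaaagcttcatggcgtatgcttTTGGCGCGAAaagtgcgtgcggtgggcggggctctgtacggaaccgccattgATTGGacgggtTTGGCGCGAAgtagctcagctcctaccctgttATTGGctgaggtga
Ube2c: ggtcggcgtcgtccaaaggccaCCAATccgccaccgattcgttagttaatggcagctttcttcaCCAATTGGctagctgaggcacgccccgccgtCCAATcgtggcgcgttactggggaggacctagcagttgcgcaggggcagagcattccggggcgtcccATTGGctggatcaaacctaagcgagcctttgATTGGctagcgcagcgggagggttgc
Mki67: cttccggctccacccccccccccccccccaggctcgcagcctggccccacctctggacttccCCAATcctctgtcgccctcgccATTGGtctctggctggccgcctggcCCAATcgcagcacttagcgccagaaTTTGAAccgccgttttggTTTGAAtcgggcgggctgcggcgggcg
In these printed stretches, Ccne1 held none of the letters. Mcm6 held 4 E2F-like matches in 2 stretches and 2 CCAAT. Ube2c held 6 CCAAT. Mki67 held 2 CHR matches, 0 E2F-like match and 3 CCAAT. In the whole windows counted below, which reach past the printed stretches, Ube2c also held CHR letters and Mki67 also held E2F-like letters. A match describes the letters and is not a binding site.

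Of the G1 cyclins and CDKs, which start the cycle, 7 of 8 were higher in Foxo1d/d, beside 55.1% of all genes. The median log2 ratio of the 8 was 0.20. Ccne1 encodes cyclin E1, which activates CDK2 at the entry to S phase, and averaged 116 counts in Foxo1f/f against 272 in Foxo1d/d, at a log2 ratio of 1.16 (95% counting bounds 0.98 to 1.34). Its fold was 2.24, the highest of the 47. Ccne2, the gene of the second E cyclin, had 88.7 counts in Foxo1f/f against 122 in Foxo1d/d, at a log2 ratio of 0.39. The log2 ratio of Ccne1 exceeded that of Ccne2 by 0.76 (95% counting interval 0.47 to 1.06), a pair chosen after the values were seen, as were the other pairs below. Cdk2, the partner of the E cyclins, had 1563 counts in Foxo1f/f against 1716 in Foxo1d/d, at a log2 ratio of 0.07. The ratio of the kinase was thus below those of both E cyclins.

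The D cyclins, which pair with CDK4 and CDK6, were each higher in Foxo1d/d. Ccnd2 had 1725 counts in Foxo1f/f against 2384 in Foxo1d/d, at a log2 ratio of 0.41. Ccnd1 had 2613 counts in Foxo1f/f against 3052 in Foxo1d/d, at a log2 ratio of 0.16. Ccnd3 had 1753 counts in Foxo1f/f against 1983 in Foxo1d/d, at a log2 ratio of 0.12. All 3 counting intervals lay above 0. The difference between the log2 ratios of Ccnd2 and Ccnd1 was 0.24 (95% counting interval 0.18 to 0.31). Of the counts on the 3 genes, Ccnd2 took 28.3% (95% Wilson interval 27.7 to 29.0) in Foxo1f/f, against 32.1% (95% Wilson interval 31.5 to 32.8) in Foxo1d/d. Ccnd2 thus had the highest ratio of the D cyclins, and its share of their counts was higher in Foxo1d/d than in Foxo1f/f. Per kilobase of exon it was the lowest, at 9.84 CPM in Foxo1f/f beside 26.7 for Ccnd1 and 27.4 for Ccnd3. The genes of their kinases differed in direction. Cdk4 had 5486 counts in Foxo1f/f against 6792 in Foxo1d/d, at a log2 ratio of 0.25. Cdk6 had 239 counts in Foxo1f/f against 194 in Foxo1d/d, at a log2 ratio of -0.37 (95% counting bounds -0.52 to -0.21), the lowest ratio of the 47. Per kilobase, Cdk4 was also far above Cdk6 in both genotypes, at 102 against 0.795 CPM per kilobase in Foxo1f/f.

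Among the RB, E2F and MYB factors, the median log2 ratio was 0.19, and 4 of 5 were above 0, beside 55.1% of all genes. E2f1, an activator of S phase genes, had the highest ratio, with 254 counts in Foxo1f/f against 381 in Foxo1d/d, at a log2 ratio of 0.52 (95% counting bounds 0.39 to 0.65). E2f8, a repressor of the E2F family, had 392 counts in Foxo1f/f against 426 in Foxo1d/d, at a log2 ratio of 0.06, and its interval held 0. The log2 ratio of E2f1 exceeded that of E2f8 by 0.46 (95% counting interval 0.28 to 0.63). Rb1, the founding pocket protein that restrains E2F, had the lowest ratio, with 899 counts in Foxo1f/f against 896 in Foxo1d/d, at a log2 ratio of -0.07 (95% counting bounds -0.14 to 0.01). Its relative Rbl1 (p107), itself a target of E2F, had 635 counts in Foxo1f/f against 854 in Foxo1d/d, at a log2 ratio of 0.37. Mybl2, which acts on late genes of the cycle, had 175 counts in Foxo1f/f against 208 in Foxo1d/d, at a log2 ratio of 0.19. So the intervals of E2f1, Rbl1 and Mybl2 lay above 0, and those of Rb1 and E2f8 held 0. With the median gene or the upper quartile as the scale, that of Mybl2 held 0 and that of Rb1 lay below 0.

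The 3 CDK brakes, with a median log2 ratio of 0.12, were all above 0, beside 55.1% of all genes. The counting interval lay above 0 for 2 of them, beside 36.7%. Cdkn1c (p57), an inhibitor of cyclin E and A kinases, had the highest ratio, with 979 counts in Foxo1f/f against 1118 in Foxo1d/d, at a log2 ratio of 0.13 (95% counting bounds 0.06 to 0.20). Cdkn2c (p18), an inhibitor of CDK4 and CDK6, had the lowest, with 507 counts in Foxo1f/f against 550 in Foxo1d/d, at a log2 ratio of 0.06 (95% counting bounds -0.04 to 0.16). Wee1, the kinase that holds CDK1 inactive in G2, had 803 counts in Foxo1f/f against 911 in Foxo1d/d, at a log2 ratio of 0.12.

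Genes of replication licensing and of the fork had the second highest median of the 7 role groups, 0.46. Above 0 were 10 of 10, beside 55.1% of all genes. Above a log2 ratio of 0.32 were 9 of the 10, beside 12.5% of all genes. When centred on the median gene or scaled by the upper quartile, 7 were, without Pcna and Cdt1, beside 11.3% and 11.5%. Cdc6 loads the MCM helicase on origins, and averaged 174 counts in Foxo1f/f against 286 in Foxo1d/d, at a log2 ratio of 0.65 (95% counting bounds 0.49 to 0.81). The next highest was Mcm2, just under 1.5-fold, with 1014 counts in Foxo1f/f against 1586 in Foxo1d/d, at a log2 ratio of 0.58. The members that follow it below the threshold were Gmnn and Mcm5. Gmnn encodes geminin, which blocks relicensing by binding CDT1, and had 163 counts in Foxo1f/f against 249 in Foxo1d/d, at a log2 ratio of 0.55. Mcm5 had 1144 counts in Foxo1f/f against 1742 in Foxo1d/d, at a log2 ratio of 0.55. Gmnn and Mcm5 thus had the same log2 ratio to 2 decimals. Mcm7 had the lowest ratio of the group, with 2147 counts in Foxo1f/f against 2518 in Foxo1d/d, at a log2 ratio of 0.17 (95% counting bounds 0.12 to 0.22). The log2 ratio of Mcm2 exceeded that of Mcm7 by 0.42 (95% counting interval 0.33 to 0.50). It exceeded that of Mcm3 by 0.13 (95% counting interval 0.04 to 0.22). Between Mcm2 and Mcm5 the difference was 0.04 (95% counting interval -0.05 to 0.13), and that interval held 0.

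The 6 MCM genes, which encode the subunits of the replicative helicase, were all higher in Foxo1d/d, but not equally. Mcm3 had 1289 counts in Foxo1f/f against 1844 in Foxo1d/d, at a log2 ratio of 0.46. Mcm4 had 1244 counts in Foxo1f/f against 1752 in Foxo1d/d, at a log2 ratio of 0.43. Mcm6 had 1214 counts in Foxo1f/f against 1744 in Foxo1d/d, at a log2 ratio of 0.46. Apart from Mcm2 and Mcm7, the MCM ratios thus spanned 0.43 to 0.55. Per kilobase of exon, the highest of the 6 was Mcm7 in both genotypes, and the highest was 2.61 times the lowest in Foxo1f/f and 2.13 times in Foxo1d/d. Mcm7 overlaps 2 other genes and took 26.7% (95% Wilson interval 26.1 to 27.2) of the MCM counts in Foxo1f/f and 22.5% (95% Wilson interval 22.1 to 23.0) in Foxo1d/d. Cdt1, the licensing factor that geminin binds, had 392 counts in Foxo1f/f against 515 in Foxo1d/d, at a log2 ratio of 0.33. The log2 ratio of Gmnn exceeded that of Cdt1 by 0.22 (95% counting interval 0.02 to 0.42). Pcna, the sliding clamp of DNA polymerase, had 2005 counts in Foxo1f/f against 2629 in Foxo1d/d, at a log2 ratio of 0.33 (95% counting bounds 0.28 to 0.38).

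Nucleotide supply was higher in Foxo1d/d for all 3 genes, at a median log2 ratio of 0.47, beside 55.1% of all genes above 0. Rrm2, the regulated subunit of ribonucleotide reductase, had the highest ratio, with 506 counts in Foxo1f/f against 749.7 in Foxo1d/d, at a log2 ratio of 0.50 (95% counting bounds 0.41 to 0.60). Rrm1, its large subunit, had the lowest, with 1850 counts in Foxo1f/f against 2336 in Foxo1d/d, at a log2 ratio of 0.28 (95% counting bounds 0.22 to 0.33). The difference between the log2 ratios of the subunits was 0.23 (95% counting interval 0.12 to 0.34). Tyms, which makes thymidylate, had 601 counts in Foxo1f/f against 867 in Foxo1d/d, at a log2 ratio of 0.47.

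The cyclins and the kinase of S phase to mitosis were all above 0, beside 55.1% of all genes. Their ratios were smaller, at a median of 0.21. Ccna2 encodes cyclin A2 of S and G2, and it was the highest, with 751 counts in Foxo1f/f against 931 in Foxo1d/d, at a log2 ratio of 0.25 (95% counting bounds 0.17 to 0.33). Ccnb2, a B cyclin, was the lowest, with 515 counts in Foxo1f/f against 565 in Foxo1d/d, at a log2 ratio of 0.07 (95% counting bounds -0.03 to 0.17). The counting intervals of these ends of the group overlapped. Ccnb1, the main mitotic B cyclin, had 469 counts in Foxo1f/f against 567 in Foxo1d/d, at a log2 ratio of 0.21. The log2 ratios of Ccnb1 and Ccnb2 differed by 0.14, with a 95% counting interval that held 0 (-0.002 to 0.283). Cdk1, their kinase, had 777 counts in Foxo1f/f against 951 in Foxo1d/d, at a log2 ratio of 0.23. Ccnf, an F-box cyclin that directs protein degradation, had 352 counts in Foxo1f/f against 421 in Foxo1d/d, at a log2 ratio of 0.20. None of the 5 was above a log2 ratio of 0.32, beside 12.5% of all genes.

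Of 13 mitosis genes, 12 were above 0, beside 55.1% of all genes, and the median log2 ratio of the 13 was 0.23. Mki67 encodes the Ki-67 antigen used to stain dividing cells, and its interval held 0, with 4000.3 counts in Foxo1f/f against 4128 in Foxo1d/d, at a log2 ratio of -0.02 (95% counting bounds -0.05 to 0.02), though it lay just below 0 when centred on the median gene or scaled by the upper quartile. Top2a, the topoisomerase that untangles chromosomes, had 3935 counts in Foxo1f/f against 4649.7 in Foxo1d/d, at a log2 ratio of 0.18 (95% counting bounds 0.14 to 0.21). The log2 ratio of Top2a exceeded that of Mki67 by 0.20 (95% counting interval 0.14 to 0.25). The highest of the group was Ube2c, a ubiquitin-conjugating enzyme of the anaphase-promoting complex, with 421 counts in Foxo1f/f against 584 in Foxo1d/d, at a log2 ratio of 0.41 (95% counting bounds 0.31 to 0.51). It was the mitosis gene above a log2 ratio of 0.32, and the other 12 lay below. Of all genes, 12.5% were above 0.32, a share that 1 of 13 does not exceed.

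The remaining mitosis genes had log2 ratios from 0.10 to 0.31. Among the kinases, Aurkb, of the chromosomal passenger complex, had 412 counts in Foxo1f/f against 533 in Foxo1d/d, at a log2 ratio of 0.31. Aurka, of the spindle poles, had 272 counts in Foxo1f/f against 341 in Foxo1d/d, at a log2 ratio of 0.27. Plk1, a kinase of mitotic entry, had 378 counts in Foxo1f/f against 472 in Foxo1d/d, at a log2 ratio of 0.26. The aurora log2 ratios differed by 0.04 (95% counting interval -0.13 to 0.21). For the spindle checkpoint, Bub1 had 333 counts in Foxo1f/f against 417 in Foxo1d/d, at a log2 ratio of 0.26, and Bub1b had 729.7 counts in Foxo1f/f against 850 in Foxo1d/d, at a log2 ratio of 0.16. Cdc20, which activates the anaphase-promoting complex, had 602 counts in Foxo1f/f against 728 in Foxo1d/d, at a log2 ratio of 0.21. These checkpoint genes and Cdc20 were modestly higher. Birc5 (survivin), a partner of Aurkb, had 486 counts in Foxo1f/f against 596 in Foxo1d/d, at a log2 ratio of 0.23. The motor gene Kif11 had 785 counts in Foxo1f/f against 964 in Foxo1d/d, at a log2 ratio of 0.24. The motor gene Kif20a had 675 counts in Foxo1f/f against 755 in Foxo1d/d, at a log2 ratio of 0.10. Tpx2, which activates Aurka on the spindle, had 884 counts in Foxo1f/f against 1007 in Foxo1d/d, at a log2 ratio of 0.13. Kif20a and Tpx2 were the lowest after Mki67.

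Exons of 10 members overlap those of another annotated gene over more than 10% of their bases, namely Ccnd1, Ccnd3, Cdk4, Ccne2, E2f8, Cdkn1c, Mcm7, Ccna2, Kif20a and Ube2c, so their counts are less certain. Pseudogene copies are annotated for Ccnd3, Pcna, Tyms, Ccnb1, Ccnb2 and Aurkb, and how the authors treated reads shared with them is not given in the sources used here.

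Levels between members can be compared only per length. Levels in CPM (counts scaled to the genotype total) per kilobase of exon ranged from 0.795 for Cdk6 to 102 for Cdk4 in Foxo1f/f. Pcna, at 50.6 in Foxo1f/f against 63.5 in Foxo1d/d, came next to Cdk4. Top2a was 28.8 in Foxo1f/f, against 32.7 in Foxo1d/d. The 4 highest genes, Cdk4, Pcna, Top2a and Mcm7, were the same in both genotypes. Ccne1 was at 2.23 per kilobase in Foxo1f/f, below most members, and at 4.99 in Foxo1d/d. Its position, counted from the highest, was 43 of 47 in Foxo1f/f, against 39 in Foxo1d/d. Rb1 differed most in position, 25 in Foxo1f/f against 34 in Foxo1d/d, and Gmnn, Ube2c and Tyms each stood 6 places higher in Foxo1d/d. So the top of the order was shared, and positions lower down differed, as the plot of levels per length shows.

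**Figure D2:**
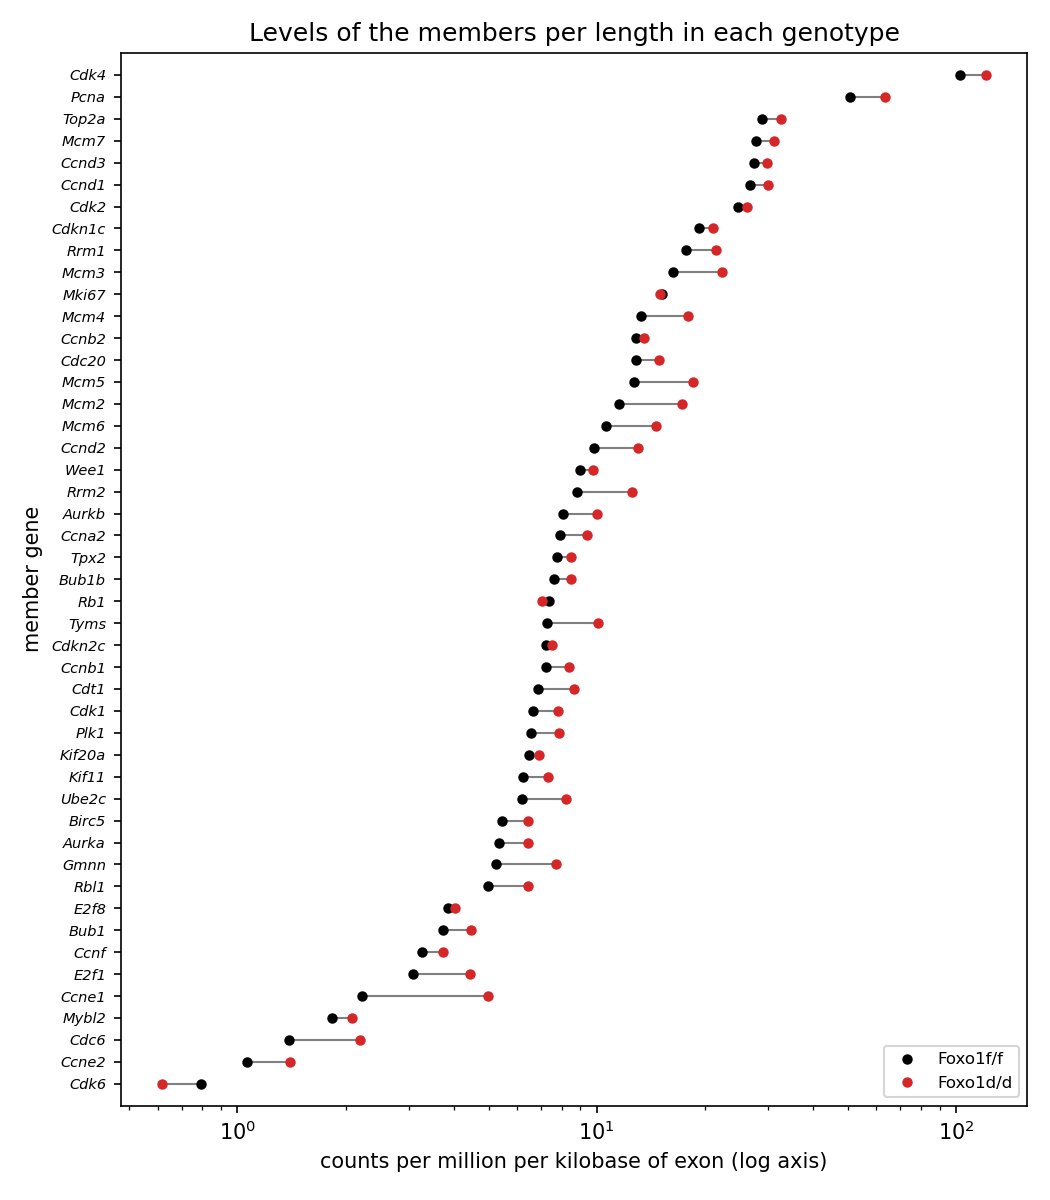
CPM per kilobase of exon (log axis) for each member in Foxo1f/f (black) and Foxo1d/d (red), ordered by the level in Foxo1f/f, with a line joining the genotypes. Most red points lie to the right of the black, by small distances, while Cdk6 lies to the left and Rb1 and Mki67 slightly so.

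Other genes of the cell cycle, in 6 lists of 107 genes, were compared in the same way, and 106 of them averaged 10 or more counts. Of these, 4 passed 1.5-fold upward (Mcm10, Uhrf1, Gins1 and Gadd45g) and 1 downward (Trp53inp1), beside 5.43% and 3.51% of all genes, shares that 4 and 1 of 106 do not exceed. Centred on the median gene or scaled by the upper quartile, 2 passed upward (Mcm10 and Gadd45g), beside 5.06% and 5.10% of all genes, and 1 downward, beside 3.79% and 3.75%. Of the 35 other replication genes, the list nearest to the licensing members, 32 were above 0, beside 55.1% of all genes. Under those scalings 31 were, beside 50.7% of all genes with the upper quartile. The list had a median log2 ratio of 0.23. Its highest was Mcm10, an origin factor, with 186 counts in Foxo1f/f against 299 in Foxo1d/d, at a log2 ratio of 0.62 (95% counting bounds 0.47 to 0.78). Uhrf1, which recruits maintenance methylation, had 819 counts in Foxo1f/f against 1291 in Foxo1d/d, at a log2 ratio of 0.59 (95% counting bounds 0.52 to 0.67), and Gins1, a helicase cofactor, had 113 counts in Foxo1f/f against 179 in Foxo1d/d, at a log2 ratio of 0.59 (95% counting bounds 0.40 to 0.79). The lowest was Cdc7, a kinase of origin firing, with 940.3 counts in Foxo1f/f against 933 in Foxo1d/d, at a log2 ratio of -0.07 (95% counting bounds -0.15 to 0.00).

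The 40 other mitosis genes had a median log2 ratio of 0.13, below that of the 13 mitosis members. Their highest was Mad2l1, of the spindle checkpoint, with 472 counts in Foxo1f/f against 672 in Foxo1d/d, at a log2 ratio of 0.45 (95% counting bounds 0.35 to 0.55). The lowest was Pttg1 (securin), with 605 counts in Foxo1f/f against 551 in Foxo1d/d, at a log2 ratio of -0.20 (95% counting bounds -0.29 to -0.10). None of the 40 was over 1.5-fold in either direction, beside 5.43% of all genes higher and 3.51% lower. The other E2F, pocket protein and DREAM genes had a median of 0.09, from Tfdp2 (-0.10) to E2f5 (0.20). E2f5 had 677 counts in Foxo1f/f against 812 in Foxo1d/d, at a log2 ratio of 0.20 (95% counting bounds 0.12 to 0.29). Tfdp2 had 2595 counts in Foxo1f/f against 2518 in Foxo1d/d, at a log2 ratio of -0.10 (95% counting bounds -0.15 to -0.06).

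Other CDK inhibitors were not higher in Foxo1d/d as a list, with a median of -0.13 over the 4 that averaged 10 or more counts and -0.03 both with no such minimum and with a minimum of 50. Cdkn1b (p27), the lowest of the list, had 2660.3 counts in Foxo1f/f against 2257 in Foxo1d/d, at a log2 ratio of -0.30 (95% counting bounds -0.35 to -0.25). Cdkn2d had 355 counts in Foxo1f/f against 387 in Foxo1d/d, at a log2 ratio of 0.06 (95% counting bounds -0.06 to 0.18). Cdkn2a lay under that level, with 4.33 counts in Foxo1f/f against 9 in Foxo1d/d. Arrest and damage genes had a median of -0.14. Trp53inp1, a p53 target, was the lowest, with 5620.3 counts in Foxo1f/f against 3697 in Foxo1d/d, at a log2 ratio of -0.67 (95% counting bounds -0.70 to -0.63). Gadd45g, a stress gene that slows the cycle, was the highest, with 834 counts in Foxo1f/f against 1385 in Foxo1d/d, at a log2 ratio of 0.67 (95% counting bounds 0.60 to 0.74). Growth drivers had a median of 0.06. Among them Mycn had 319.7 counts in Foxo1f/f against 259 in Foxo1d/d, at a log2 ratio of -0.37 (95% counting bounds -0.50 to -0.23), and Cdc25a, a phosphatase that activates CDK2, had 833 counts in Foxo1f/f against 1061 in Foxo1d/d, at a log2 ratio of 0.29 (95% counting bounds 0.21 to 0.36).

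**Figure D3:**
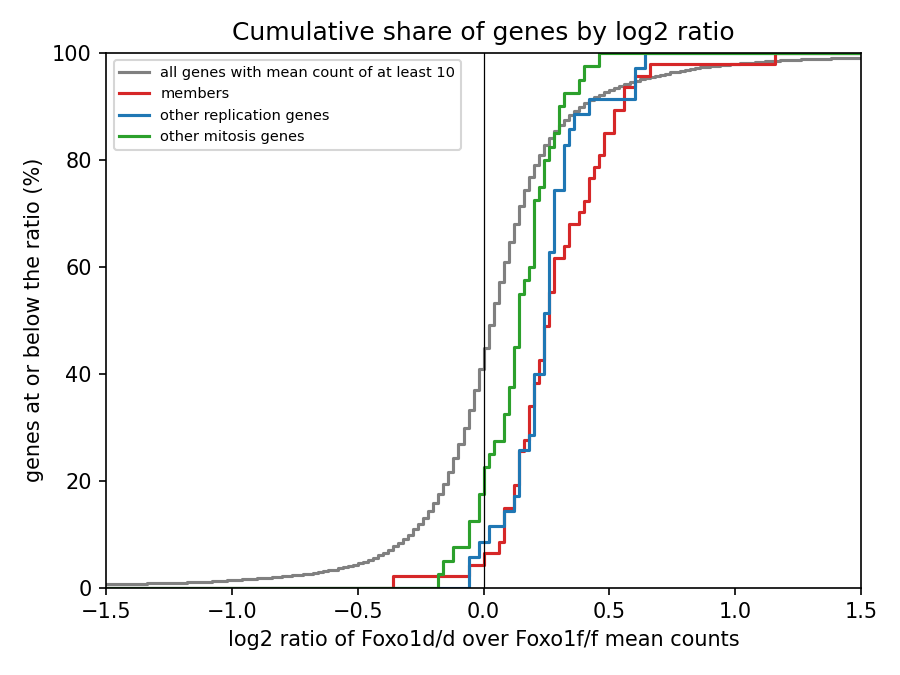
Share of genes (%) at or below each log2 ratio, for the 47 members, for other replication and other mitosis genes and for all genes averaging 10 or more counts. The members' curve lies to the right of that of all genes up to about 1.5-fold, with medians of 0.25 and 0.02.

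**Figure D4:**
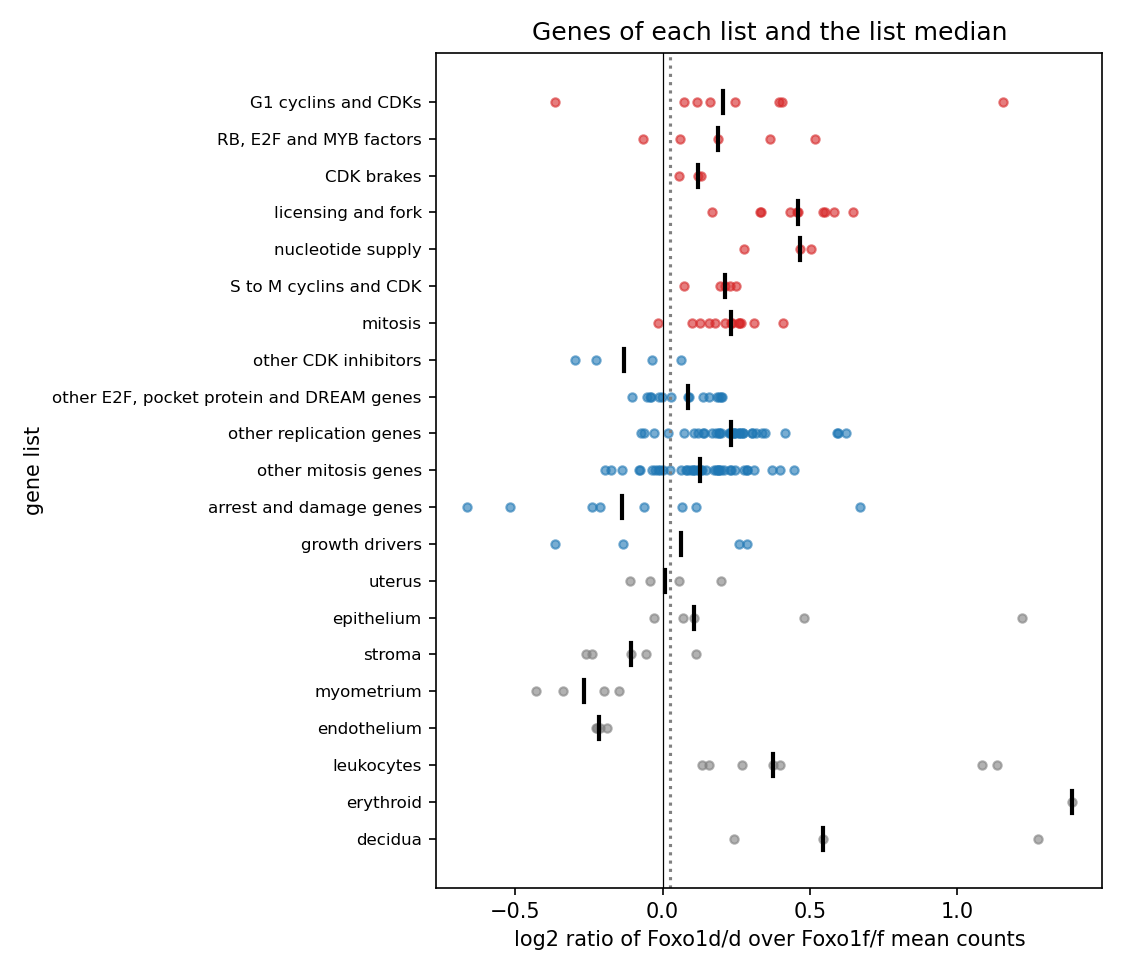
Log2 ratios of the genes of each list (points) and the list median (black bar), for members (red), other cell cycle genes (blue) and cell type markers (grey), with a dotted line at the median of all genes. Gland markers are left off, since Prss29 and Spink1 lie far to the left.

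In the window from 250 bases before to 50 after the start, 15 of 35 matched members held CHR letters (42.9%), beside 19.4% of all 16375 genes with a promoter in the table. E2F-like letters were in 15 of them (42.9%), beside 14.1%. CCAAT was in 25 (71.4%), beside 42.2%. The forkhead core GTAAACA was in 2, beside 3.44% of all. CHR letters were in 9 of 10 mitosis genes and 2 of 8 licensing genes, and in 6 and 2 of them when only the bases before the start were searched. E2F-like letters were in 1 of 10 mitosis genes and 6 of 8 licensing genes, and in 1 and 4 in the shorter window. Members with E2F-like letters had a median log2 ratio of 0.28, and those without had 0.24. With CHR letters the median was 0.21, and without 0.33. With CCAAT it was 0.23, and without 0.35. With the forkhead core, in 2 members, it was 0.14, and without 0.26. The CHR and E2F-like letters differed between mitosis and licensing genes, whose median ratios also differed. Letters and role thus cannot be told apart in these medians. These starts are those of the promoter table, and other annotated starts of a gene can lie upstream.

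The tissue's own markers Pgr, Esr1, Hoxa10 and Hoxa11 were present in both genotypes, 2 of the 4 above 0, with a summed level of 1265 CPM in Foxo1f/f against 1255 in Foxo1d/d and Hoxa10 the highest per kilobase in both genotypes. Leukocyte markers were higher in Foxo1d/d for 7 of 7 genes that averaged 10 or more counts, with S100a8 below that level. Their summed level over 8 genes was 292 CPM in Foxo1f/f against 357 in Foxo1d/d, with Cd68 the highest per kilobase in Foxo1f/f and Ptprc in Foxo1d/d and none at 0. Epithelial markers, 4 of 5 above 0, summed to 551 CPM in Foxo1f/f against 644 in Foxo1d/d, with Krt18 the highest per kilobase in both genotypes, and Krt19 had 757 counts in Foxo1f/f against 1842 in Foxo1d/d, at a log2 ratio of 1.22. Stroma markers summed to 5850.1 CPM in Foxo1f/f against 5712 in Foxo1d/d, with Dcn the highest per kilobase in both genotypes and 1 of 5 above 0. Myometrium markers were lower for 4 of 4, at 4927 CPM in Foxo1f/f against 3971 in Foxo1d/d, with Acta2 the highest per kilobase in both genotypes. Endothelium markers were lower for 4 of 4, at 1030.2 CPM in Foxo1f/f against 887 in Foxo1d/d, with Pecam1 the highest per kilobase in both genotypes. Of all genes, 55.1% were above 0.

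Gland markers, 1 of 3 above 0, summed to 656 CPM in Foxo1f/f against 39.5 in Foxo1d/d over the 3 matched genes, with Prss29 the highest per kilobase in both genotypes and Cxcl15 not matched by gene identifier. Foxa2 had 279.7 counts in Foxo1f/f against 299.7 in Foxo1d/d, at a log2 ratio of 0.04. Of the erythroid markers, Alas2 had 147 counts in Foxo1f/f against 403 in Foxo1d/d, at a log2 ratio of 1.39. Hba-a1 and Hbb-b1 were listed at 0 in both genotypes, and Hbb-bs was not matched. Rows under the synonyms Il8 (for Cxcl15) and Beta-s (for Hbb-bs) carry no gene identifier and were left out, so being unmatched does not mean absent. Decidua markers, 3 of 3 above 0 among those averaging 10 or more counts, summed to 23.1 CPM in Foxo1f/f against 41.8 in Foxo1d/d, with Alpl the highest per kilobase in both genotypes and Prl8a2 listed at 0. The part of these cell types in the members' higher counts was not tested.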

How the data were processed

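RNA was sequenced from 6 libraries, 3 per genotype, each a pool of 2 mice. The authors trimmed the reads, mapped them with STAR, and then took out duplicate reads using Picard and assigned reads to RefSeq genes using HTSeq. They deposited raw counts averaged over the 3 libraries of each genotype. Their versions are not given in the sources used here. The study's methods name the build mm10, the submitters' processing notes name mm9, and the table holds no coordinates. The authors' table also holds a fold change, a p-value and an FDR from their edgeR comparison, and a log2 CPM, none of which is used here. The number of other columns of single samples left out is 0.

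Mean counts were read with pandas 2.3.3 and numpy 2.4.6 in Python 3.11.15, a pseudocount of 1 was added, and each was divided by the genotype's total. Intervals came from statsmodels 0.14.6 and plots from matplotlib 3.10.9. Genes averaging 10 or more counts over the genotypes formed the comparison set. Differences between log2 ratios were computed for 15 pairs of members, with counting intervals from a normal approximation. The steps were tested on simulated data. Exon lengths are the union of exons in GENCODE vM21 basic (GRCm38), and promoters and synonyms are from RefSeq GRCm38.p6. Older symbols were matched only where the gene identifier was the same. Genes given in full are members past 1.5-fold, Mki67, Top2a and Pcna, the highest and lowest of each role group, and, of the other cell cycle lists, genes past 1.5-fold and the highest and lowest. Members and lists were chosen with earlier results of these data known. Planned fits that leave out a replicate or use the replicate number as a block were not run, because the values of single libraries were not analysed here.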

Additional observations from a re-analysis of the deposited data

How the results depend on the processing

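Other settings were a pseudocount of 0.1, centring on the median gene, scaling by the upper quartile, fold thresholds at a log2 ratio of 0.32 and of 1, no filter on low counts or a minimum average of 50 counts, and a promoter window of 250 bases before the start only. No member's ratio had another sign under the other pseudocount or scalings. At 0.32, 17 members were higher and 1 lower, and at 1 there was 1 higher, beside 1.99% of all genes, a share near 1 of 47, and none lower, beside 1.40%. The threshold itself sets these counts. Of the other cell cycle genes, 10 were higher and 3 lower at 0.32, beside 12.5% and 9.00% of all genes, and none either way at 1, against 4 and 1 at 1.5-fold. Centring on the median gene and scaling by the upper quartile each gave 2 and 1 there, as Gins1 and Uhrf1 lay just under the threshold, and each left 15 members above 0.32, without Pcna and Cdt1. Under both, the intervals of Cdk2, Mybl2 and Kif20a held 0 and those of Rb1 and Mki67 lay below 0. The counts of other cell cycle genes, those at 0.32 under other scalings and those of intervals were added after seeing the data. The median of the 4 uterus markers was 0.0076 and became -0.017 when centred on the median gene and -0.013 when scaled by the upper quartile, because it lay near 0. Without the 10 members that share exon bases with another gene, a setting chosen after seeing the data, 34 of 37 were above 0, 2 were over 1.5-fold higher and the median was 0.26. No paired analysis was possible because the values analysed are genotype means, and leave-one-out fits were not run for the same reason. The forkhead letters were in 1 matched member in the shorter promoter window. Depth limits the genes with the fewest counts: the interval of Ccne2 was 0.17 to 0.63.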
